A study of Mus musculus with 24 samples.

Results

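Transcripts of 10 genes of the BCL2 family were followed through 24 RNA-seq libraries of mouse lymph node B cells. The genes were those listed as Bcl2, Bcl2l1, Mcl1, Bax, Bak1, Bcl2l11, Bbc3, Bmf, Pmaip1 and Bid in both deposited count tables, and all 10 were found among the 27179 genes. Each of 4 genotypes was sequenced in duplicate at each of 3 stages, on a C57BL/6 background: naive B cells, B cells after 48 h with CD40L + IL-4, and B cells after 48 h with LPS + IL-4 (CD40L, the ligand of CD40, and LPS, a bacterial lipopolysaccharide, each activate B cells). Control mice were Cd23T/+ and so carried the Cd23-Cre transgene, which drives Cre from the regulatory sequences of the CD23 gene in maturing B cells. PU.1 cKO mice were Spi1fl/fl Cd23T/+. SpiB KO mice were Spi1fl/fl Cd23+/+ Spib-/-, with no Cre. PU.1 SpiB DKO mice were Spi1fl/fl Cd23T/+ Spib-/-. Control therefore differed from SpiB KO in Cre and in the floxed Spi1 alleles as well as in Spib. Per the methods, adult mice were used and the cells sequenced were sorted as CD3- B220+ CD138-. The methods call the 2 libraries of a group biological replicates, but neither they nor the labels tie a library to an animal, so p-values measure the spread between these libraries.

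PU.1 and SpiB are related ETS transcription factors of B cells that bind the same purine-rich DNA sequence. The BCL2 family sets the threshold for the mitochondrial pathway of apoptosis. BCL2, BCL-XL (from Bcl2l1) and MCL1 hold the effectors BAX and BAK in check, and the BH3-only proteins, among them BIM (Bcl2l11), PUMA (Bbc3), BMF, NOXA (Pmaip1) and BID, antagonize the pro-survival members or activate the effectors. Naive B cells depend on this balance for their lifespan, and B cell activation is known to change it.

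Since PU.1 and SpiB both recognize a GAGGAA core, the promoters of the members were searched for it. RefSeq promoter sequences on GRCm38.p6 (250 bases before to 50 after a transcription start) were available for 9 of the 10 genes, as 16 promoters, and Pmaip1 was not among them. The 6 letters GAGGAA, on either strand, stood in 4 of these 16 promoters, and in 28.3% of all 32851 promoters. The longer form GAGGAAGT, which contains GAGGAA, was in 1 of the 16 (Bak1) and in 3.2% of all promoters. The matches are shown here 5′ to 3′ on the gene's own strand with 10 bases on either side, and capitals mark GAGGAA or its reverse complement TTCCTC. All 4 genes lie on the minus strand, and the windows were at chr1:106714304-106714329 for Bcl2, chr2:118544727-118544752 for Bmf, chr6:120916819-120916844 for Bid and chr17:27028632-27028657 for Bak1.
Bcl2: gcccgcccccTTCCTCcccggcccgt
Bmf: gtgcctggccGAGGAAcagtgggaaa
Bid: gggcgagcacGAGGAAaggtaggtgg
Bak1: caccgagaacTTCCTCtagagggagc
These matches describe the letters in the windows and do not show binding.

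Library totals ran from 14.2 to 18.2 M counts in naive cells, 9.6 to 61.6 M after CD40L + IL-4 and 22.8 to 73.7 M after LPS + IL-4. The ribosomal RNA gene Rn45s took 6.64% of counts in PU.1 SpiB DKO replicate 1 after CD40L + IL-4, 3.62% in naive control replicate 1, 3.26% in PU.1 cKO replicate 2 after LPS + IL-4 and 0.19 to 1.86% in the other 21 libraries. Levels are given as CPM (counts scaled to library size by edgeR's TMM method over all 24 libraries), for each of the 2 libraries of a group, and CPM compares libraries, not genes. Fold changes between genotypes come from fits within a stage, and those between stages from a fit of all 24 libraries. They can differ slightly from the ratio of these levels. Differential expression (DE) required 3 things of a gene: its Benjamini-Hochberg adjusted p was below 0.15 in edgeR's quasi-likelihood test, it changed by more than 1.5-fold, and its log2 RPKM averaged above 0. Spib was at 1395 to 2387 CPM in the 4 naive libraries with intact Spib and at 86.1 to 108 CPM in the 4 Spib-/- ones. Spi1 was at 167 and 179 CPM in naive control, 65.3 and 58.7 in PU.1 cKO and 109 and 118 in PU.1 SpiB DKO, so that more Spi1 transcript was left in naive PU.1 SpiB DKO than in PU.1 cKO cells. After CD40L + IL-4 Spi1 was at 83.2 and 105 CPM in control and 31.3 and 24.9 in PU.1 SpiB DKO. After LPS + IL-4 it was at 69.4 and 60.3 CPM in control and 59 and 54.4 in PU.1 SpiB DKO. PU.1 cKO was at 45.4 and 34.3 CPM in the former culture and 42.7 and 39.2 in the latter. Counts cover whole genes and do not single out the deleted exon. From reads over that exon, the paper reports it partly kept in naive PU.1 SpiB DKO cells and efficiently deleted in both cultures. The B cell gene Cd79a was high in every naive library (2519 to 3468 CPM). In naive cells, 12 plasmacytoid dendritic cell markers summed to 505 to 626 CPM in control, with PU.1 cKO at 531 to 603, SpiB KO at 2427 to 2937 and PU.1 SpiB DKO at 3206 to 3433, and none was at 0. The 12 T cell markers summed to 84.4 to 138 CPM in naive control and to 449 to 667 in the naive Spib-/- libraries, of which Cd8a made up 188 to 283 CPM while Cd3e stayed at or below 0.68 CPM. In the cultures the dendritic cell markers summed to 197 to 343 CPM in Spib-/- libraries and 259 to 351 in control, and the T cell markers to 195 to 292 in PU.1 SpiB DKO and 51.4 to 98.7 in control. In those PU.1 SpiB DKO libraries Cd3e was at or below 0.104 CPM and Cd8a at or below 0.833 CPM. Among the T cell markers DE and higher there in both cultures were Lat and Cd28, and Cd28 is also on the plasma cell list. The counts of the CD40L + IL-4 libraries were deposited as a set of their own, and those of the naive and LPS + IL-4 libraries together. A sequencing or culture set behind that, or any other that held 1 stage, cannot be told apart from the stage.

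Activation of control cells changed most of the family. After CD40L + IL-4, 9 of the 10 genes were DE against naive cells (5 higher, 4 lower), after LPS + IL-4 7 were (4 higher, 3 lower), and between the cultures 5 were (4 higher, 1 lower with LPS + IL-4). Of all genes tested, 35.1%, 47.5% and 31.2% were DE in these comparisons, so much of the transcriptome moved as well. Bcl2l1, which encodes BCL-XL, rose in both cultures, and after LPS + IL-4 by more than any other of the 10 genes. It was at 8.97 and 9.81 CPM in naive control, 32.9 and 40.3 after CD40L + IL-4 and 106 and 148 after LPS + IL-4. No libraries of different stages overlapped, and the rises were 1.94 ± 0.19 (SE) and 3.73 ± 0.19 on the log2 scale against naive cells (adjusted p = 6.25e-08 and 3.96e-12).

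The other pro-survival members fell in control cells. Bcl2 was at 97.9 and 126 CPM in naive cells, 72.1 and 61.1 after CD40L + IL-4 and 42.3 and 44.2 after LPS + IL-4. It fell by 0.78 ± 0.17 and by 1.40 ± 0.17 on the log2 scale (adjusted p = 0.000771 and 5.47e-07), and was a further 0.62 ± 0.17 lower with LPS + IL-4 than with CD40L + IL-4 (log2 fold change -0.62, adjusted p = 0.0056). The call for CD40L + IL-4 was lost without naive control replicate 2 (log2 fold change -0.58, under the fold threshold), and that between the cultures without CD40L + IL-4 control replicate 1 (log2 fold change -0.52, adjusted p = 0.0539). Mcl1 went from 1009 and 1014 CPM in naive cells to 454 and 499 after CD40L + IL-4 and 464 and 429 after LPS + IL-4, a fall of 1.11 ± 0.11 and 1.2 ± 0.11 (log2 fold changes -1.11 and -1.2, adjusted p = 4.61e-08 and 6.04e-09).

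Among the effectors, Bax rose from 68.1 and 65 CPM in naive control to 114 and 139 after CD40L + IL-4 and 106 and 123 after LPS + IL-4 (log2 fold changes 0.90 ± 0.15 and 0.76 ± 0.15, adjusted p = 5.23e-05 and 0.000164). With voom the LPS + IL-4 value of Bax was 0.55, under the fold threshold. Bak1 rose with CD40L + IL-4, from 102 and 91.6 CPM to 146 and 152 (log2 fold change 0.59 ± 0.12, adjusted p = 0.000276), just past the fold threshold. The Bak1 call was lost without CD40L + IL-4 control replicate 2 (0.54) and without naive control replicate 2 (0.52).

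The BH3-only genes split in direction. Bmf fell furthest of the 10 genes, from 92.9 and 88.6 CPM in naive control to 3.87 and 4.07 after CD40L + IL-4 and 14.9 and 9.22 after LPS + IL-4 (log2 fold changes -4.54 ± 0.37 and -2.95 ± 0.31, adjusted p = 4.33e-09 and 7.34e-08). Bbc3 rose from 4.07 and 4.03 CPM to 17 and 18.3 and to 25 and 18.1 (2.10 ± 0.24 and 2.38 ± 0.23, adjusted p = 4.89e-07 and 2.73e-08). Bid, whose product links death receptors to mitochondria, rose from 53.5 and 46.9 CPM to 87.3 and 78.9 and to 136 and 150 (0.70 ± 0.13 and 1.49 ± 0.13, adjusted p = 0.000101 and 3.16e-09). Pmaip1 was lower after CD40L + IL-4, at 13 and 13.6 CPM against 25.1 and 26.1 (-0.97 ± 0.22, adjusted p = 0.00123), and at 22 and 21.9 CPM after LPS + IL-4 it was not DE against naive cells (-0.25 ± 0.21, adjusted p = 0.312). Bcl2l11 had log2 fold changes of -0.47 ± 0.18 and -0.42 ± 0.18 (adjusted p = 0.0359 and 0.0422), under the fold threshold in both cultures.

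**Figure D1:**
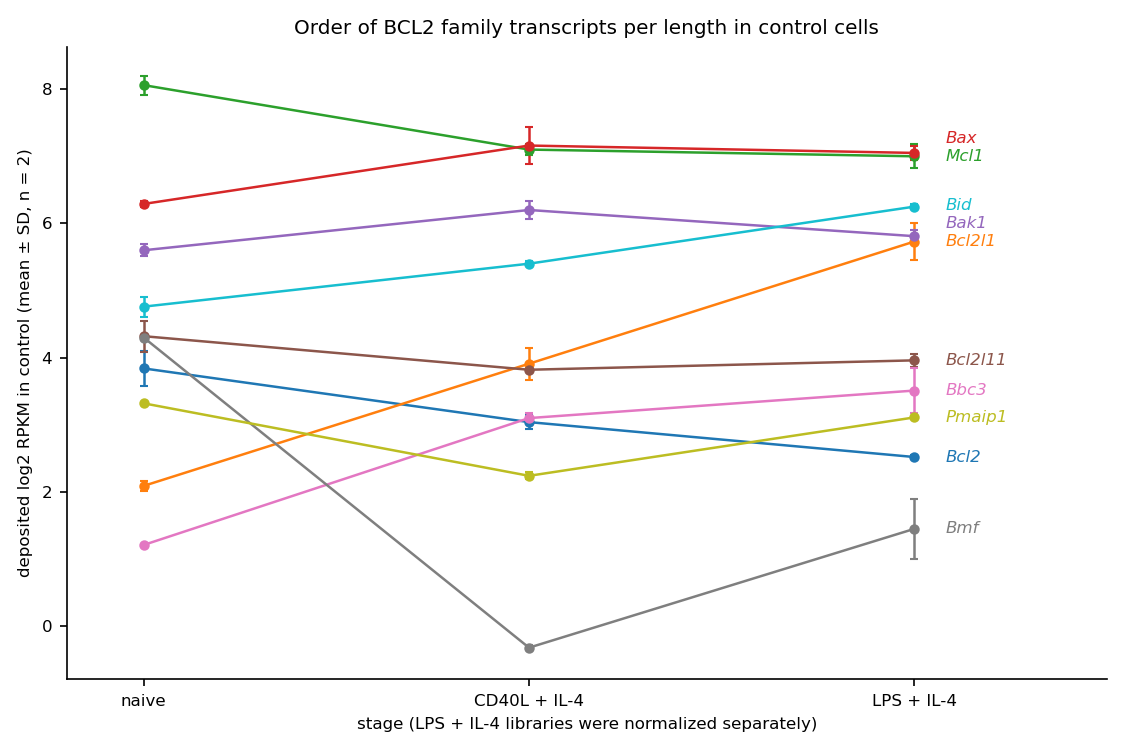
Deposited log2 RPKM (y axis, mean ± SD of 2 control libraries) of the 10 genes at the 3 stages (x axis), 1 line per gene. Mcl1 was highest per length in naive control (8.06) and Bcl2l1 was among the lowest (2.09), whereas after LPS + IL-4 Bcl2l1 stood at 5.73 and Bmf, at 1.45, was lowest.

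Per length, the order of the family in control cells therefore differed between stages. On the deposited log2 RPKM scale, which is normalized separately for the LPS + IL-4 libraries and given as mean ± SD (n = 2), naive control ranked Mcl1 (8.06 ± 0.14), Bax (6.29 ± 0.05), Bak1 (5.60 ± 0.09), Bid (4.76 ± 0.15), Bcl2l11 (4.32 ± 0.23), Bmf (4.30 ± 0.03), Bcl2 (3.84 ± 0.26), Pmaip1 (3.32 ± 0.02), Bcl2l1 (2.09 ± 0.08) and Bbc3 (1.21 ± 0.01). Only Bcl2l11 and Bmf overlapped among neighbours in that order. After CD40L + IL-4, Bax (7.16 ± 0.27) and Mcl1 (7.10 ± 0.08) led and overlapped, as did Bcl2l1 with Bcl2l11 and Bbc3 with Bcl2, and Bmf was last (-0.32 ± 0.04). After LPS + IL-4, Bax and Mcl1 overlapped again at the top (7.05 ± 0.10 and 7.0 ± 0.18), Bcl2l1 (5.73 ± 0.28) overlapped Bak1 (5.81 ± 0.09), and Bcl2 was ninth (2.52 ± 0.03).

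Against control of the same stage, 7 of the 10 genes were DE in at least 1 of 9 comparisons, and Bax, Bak1 and Mcl1 in none. The share of all genes DE in at least 1 of the 9 was not counted. The shares given next are for single comparisons and are no background for that count. In PU.1 cKO, 3 members were DE in naive cells, 3 after CD40L + IL-4 and 2 after LPS + IL-4, where 8.4%, 9.36% and 6.67% of all genes tested were DE. In SpiB KO the counts were 1, 0 and 0, with 6.35%, 0.11% and 2.29% of all genes DE. For the counts of 0, 2 members after CD40L + IL-4 and 3 after LPS + IL-4 had an unadjusted p under 0.05 in edgeR, and DESeq2 and voom called 0 in both cultures. In PU.1 SpiB DKO, 4 members were DE in naive cells, 4 after CD40L + IL-4 and 5 after LPS + IL-4, against 14.1%, 13.7% and 13.6% of all genes. The median log2 fold change of the 10 members in PU.1 SpiB DKO was 0.12, 0.08 and -0.18 at the 3 stages, beside 0.00, 0.00 and 0.01 over all genes. All mutants of a stage were set against the same 2 control libraries.

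**Figure D2:**
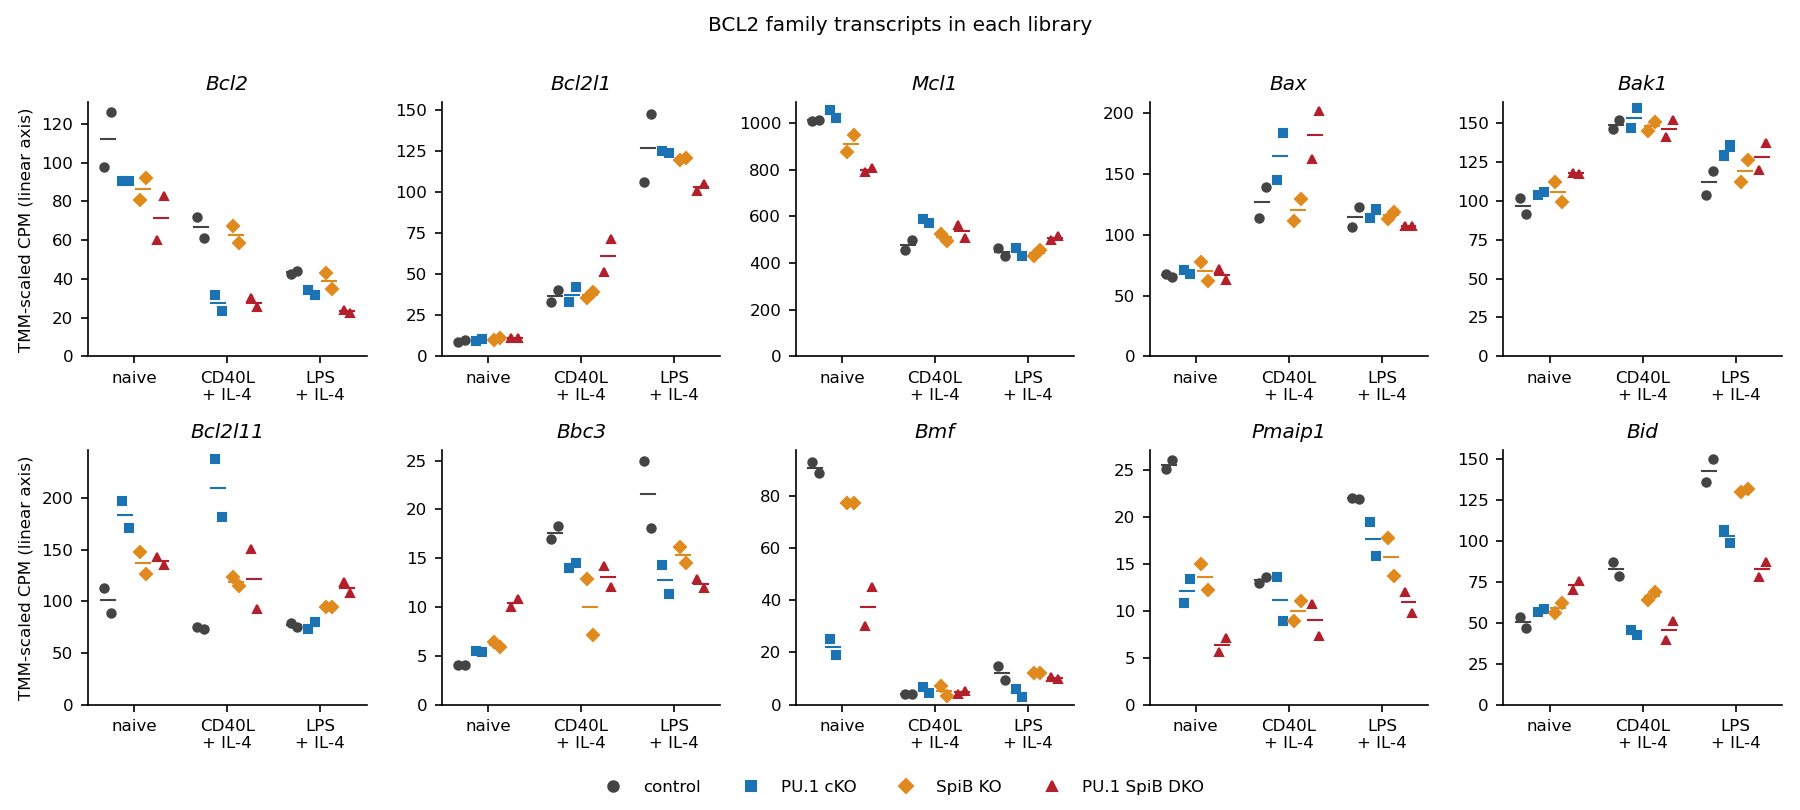
CPM (y axes, linear, TMM-scaled over 24 libraries) of each gene by stage (x axes), with 1 point per library, a horizontal line at the mean of the 2 libraries and colour and shape for genotype. After CD40L + IL-4, Bcl2 in the 4 Spi1fl/fl Cd23T/+ libraries lay between 23.6 and 31.8 CPM, below the control libraries at 61.1 and 72.1.

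Bcl2 was lower than in control wherever it was DE, and the fall was largest after CD40L + IL-4. There it was at 72.1 and 61.1 CPM in control, with PU.1 cKO at 31.8 and 23.6, SpiB KO at 67.2 and 58.5 and PU.1 SpiB DKO at 30.1 and 25.4. The 4 Spi1fl/fl Cd23T/+ libraries lay below every other library of that stage, and the falls were 2.42-fold in PU.1 cKO (log2 fold change -1.28 ± 0.19, adjusted p = 0.00213) and 2.38-fold in PU.1 SpiB DKO (-1.25 ± 0.19, adjusted p = 0.00177), while the difference of the double mutant from PU.1 cKO was 0.02 ± 0.19 (adjusted p = 0.975). After LPS + IL-4, control was at 42.3 and 44.2 CPM, PU.1 cKO at 34.2 and 31.7, SpiB KO at 43.1 and 35 and PU.1 SpiB DKO at 24.1 and 22.3. PU.1 SpiB DKO was DE against control (-0.82 ± 0.11, adjusted p = 0.000672) and against SpiB KO (-0.69 ± 0.11, adjusted p = 0.00312), the latter only with SpiB KO replicate 1 in the fit (-0.56 without it). In naive cells control was at 97.9 and 126 CPM and PU.1 SpiB DKO at 60.2 and 83 (-0.67 ± 0.18, adjusted p = 0.0273), a call that was lost without PU.1 SpiB DKO replicate 1 (-0.47, adjusted p = 0.188) and without control replicate 2 (-0.44, adjusted p = 0.15). The naive single mutants, at 80.7 to 92.1 CPM, lay below both control libraries but were not DE (PU.1 cKO, adjusted p = 0.234, and SpiB KO, adjusted p = 0.24). An antisense gene, D630008O14Rik, shares 558 exonic bases with Bcl2 on the opposite strand. The library kit named in the labels does not mark strand, so reads of the pair in those bases cannot be told apart. D630008O14Rik was at 0.196 to 1.1 CPM in the 8 naive libraries and not DE against control there (adjusted p = 0.204 to 0.9).

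Bcl2l1 differed between genotypes only after CD40L + IL-4, among the comparisons with control. It was at 32.9 and 40.3 CPM in control, with PU.1 cKO at 33 and 42.5, SpiB KO at 35.4 and 39.3 and PU.1 SpiB DKO at 51.2 and 71.6. Both PU.1 SpiB DKO libraries were above all 6 others, and the rise was 1.69-fold against control (0.76 ± 0.20, adjusted p = 0.0315), 0.70 ± 0.20 against PU.1 cKO (adjusted p = 0.128) and 0.73 ± 0.20 against SpiB KO (adjusted p = 0.0445). Each of these calls rested on single libraries. Without PU.1 SpiB DKO replicate 2 the log2 fold changes were 0.51, 0.44 and 0.47 (adjusted p = 0.249, 0.667 and 0.353), without control replicate 1 the first was 0.61 (adjusted p = 0.209), without SpiB KO replicate 1 the last was 0.66 (adjusted p = 0.226), and without PU.1 cKO replicate 1 or 2 the second had an adjusted p of 0.623 or 0.221. After LPS + IL-4, PU.1 SpiB DKO at 101 and 105 CPM lay below control at 106 and 148, and the log2 fold change was -0.22 ± 0.12 (adjusted p = 0.204).

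Mcl1 kept within the fold threshold in every comparison of genotypes. In naive cells PU.1 SpiB DKO was at 790 and 808 CPM against 1009 and 1014 in control (-0.36 ± 0.10, adjusted p = 0.0377), and after LPS + IL-4 at 498 and 516 against 464 and 429 (0.26 ± 0.09, adjusted p = 0.0404). The difference between these effects was 0.56 ± 0.15 (adjusted p = 0.0133). The PU.1 SpiB DKO effect on Mcl1 thus differed between these stages, with Spi1 only partly deleted in naive cells.

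Of the effectors, Bak1 was not DE in any comparison of genotypes, with log2 fold changes against control from -0.01 to 0.28. Bax was DE in 1, PU.1 SpiB DKO against SpiB KO after CD40L + IL-4, where it was at 162 and 202 CPM against 111 and 129 (0.62 ± 0.19, adjusted p = 0.0589). That call was lost without SpiB KO replicate 1 (0.51, adjusted p = 0.305) and without PU.1 SpiB DKO replicate 2 (0.45, adjusted p = 0.366). In naive cells and after LPS + IL-4, Bax libraries of each mutant overlapped those of control, with log2 fold changes from -0.02 to 0.06. Exons of Bak1 share 614 bases with Ggnbp1 on the opposite strand, and Ggnbp1, at 0.513 to 1.24 CPM in naive libraries, was not DE against control where it was tested (adjusted p = 0.19 to 1).

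Bax lies 0.93 Mb from Spib on chromosome 7, at 7:45461695-45466903 (GRCm38.p6), and its neighbours did not share its behaviour. Ftl1, for the ferritin light chain, ends 1809 bases from Bax, and Dhdh, for a dihydrodiol dehydrogenase, starts 6053 bases from it on the other side. Ftl1 was at 169 to 496 CPM in the 12 libraries with intact Spib and at 3.91 to 28.9 CPM in the 12 Spib-/- libraries, with no overlap, and in SpiB KO its log2 fold changes were -5.11 ± 0.46 in naive cells, -5.06 ± 0.35 after CD40L + IL-4 and -3.50 ± 0.11 after LPS + IL-4 (adjusted p = 0.000252, 3.7e-05 and 3.19e-07). Dhdh went the other way, at 1.06 to 4.94 CPM with intact Spib and 8.83 to 22.5 CPM in Spib-/- libraries. In SpiB KO the log2 fold changes of Dhdh were 2.75 ± 0.30, 2.45 ± 0.25 and 3.13 ± 0.20 (adjusted p = 0.000733, 0.00199 and 0.000105). Between these genes, Bax in SpiB KO had log2 fold changes of 0.05, -0.08 and 0.03 (SE 0.14, 0.18 and 0.09).

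**Figure D3:**
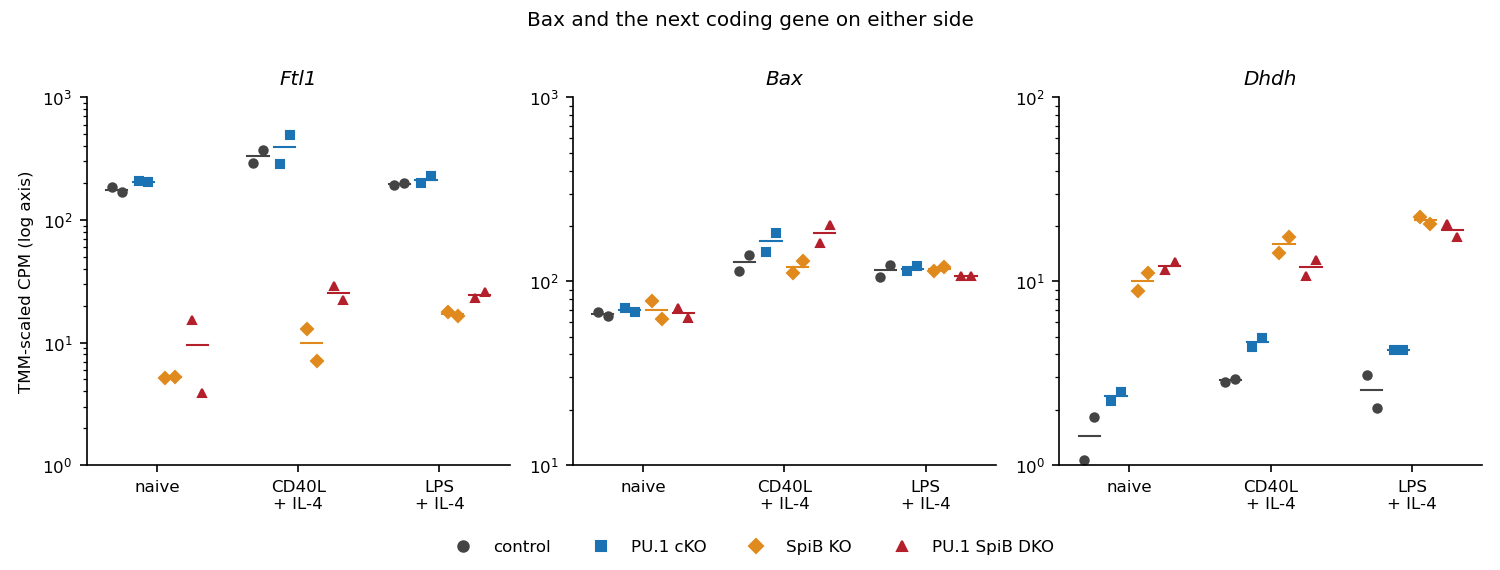
CPM (y axes, log scale, with a different range in each panel) of Ftl1, Bax and Dhdh by stage (x axes), with 1 point per library, a line at each mean and colour and shape for genotype. The Spib-/- libraries (orange and red) were at or below 28.9 CPM for Ftl1 and at or above 8.83 CPM for Dhdh, and for Bax they overlapped control except in PU.1 SpiB DKO after CD40L + IL-4.

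Bcl2l11, which encodes BIM, was higher than in control wherever it was DE. In naive cells it was at 113 and 88.7 CPM in control, with PU.1 cKO at 197 and 171, SpiB KO at 148 and 126 and PU.1 SpiB DKO at 143 and 135. All mutant libraries lay above control, and PU.1 cKO alone was DE (1.75-fold, 0.81 ± 0.14, adjusted p = 0.00817). After CD40L + IL-4 control was at 75 and 73.5 CPM, PU.1 cKO at 238 and 182, SpiB KO at 124 and 115 and PU.1 SpiB DKO at 151 and 92.3. Every mutant library was again above control. The rise was 2.83-fold in PU.1 cKO (1.5 ± 0.23, adjusted p = 0.0023) and 1.65-fold in PU.1 SpiB DKO (0.73 ± 0.23, adjusted p = 0.0601), while SpiB KO did not pass (0.69 ± 0.23, adjusted p = 0.868). After LPS + IL-4 the order was different, with 78.5 and 74.8 CPM in control, with PU.1 cKO at 73 and 79.6, SpiB KO at 94.1 and 94.9 and PU.1 SpiB DKO at 119 and 108. There PU.1 cKO overlapped control (0.02 ± 0.09, adjusted p = 0.927) and PU.1 SpiB DKO rose (0.65 ± 0.09, adjusted p = 0.000657), also against PU.1 cKO (0.62 ± 0.09, adjusted p = 0.00285).

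The size of the PU.1 cKO effect on Bcl2l11 differed between the cultures, by -1.52 ± 0.25 on the log2 scale for LPS + IL-4 minus CD40L + IL-4 (adjusted p = 0.00402). The PU.1 by SpiB interaction is the PU.1 SpiB DKO effect against control minus the sum of both single-mutant effects. It also holds the differences of SpiB KO from control in Cre and the floxed Spi1 alleles. After CD40L + IL-4, Bcl2l11 was the 1 member with such an interaction (-1.46 ± 0.32, adjusted p = 0.121), and PU.1 SpiB DKO was lower than PU.1 cKO (-0.78 ± 0.22, adjusted p = 0.135). Several of these calls were borderline. The CD40L + IL-4 call in PU.1 SpiB DKO was lost without replicate 1 of that group, the library with 6.64% Rn45s (0.32, adjusted p = 0.388), and without either control library (adjusted p = 0.208 and 0.156). The call against PU.1 cKO was lost without PU.1 cKO replicate 1 or 2 (adjusted p = 0.586 and 0.178) or PU.1 SpiB DKO replicate 2 (adjusted p = 0.594), and the interaction when any 1 of 5 libraries was left out (either control library, replicate 1 of PU.1 cKO or of SpiB KO, or replicate 2 of the double mutant, adjusted p = 0.203 to 0.343). After LPS + IL-4 the rises in PU.1 SpiB DKO were under the fold threshold in a fit of all 24 libraries (0.57 against control and 0.57 against PU.1 cKO). The rise against control fell to 0.58, just under the fold threshold, without PU.1 SpiB DKO replicate 1, and that against PU.1 cKO to 0.54 or 0.55 without PU.1 cKO or PU.1 SpiB DKO replicate 1.

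**Figure D4:**
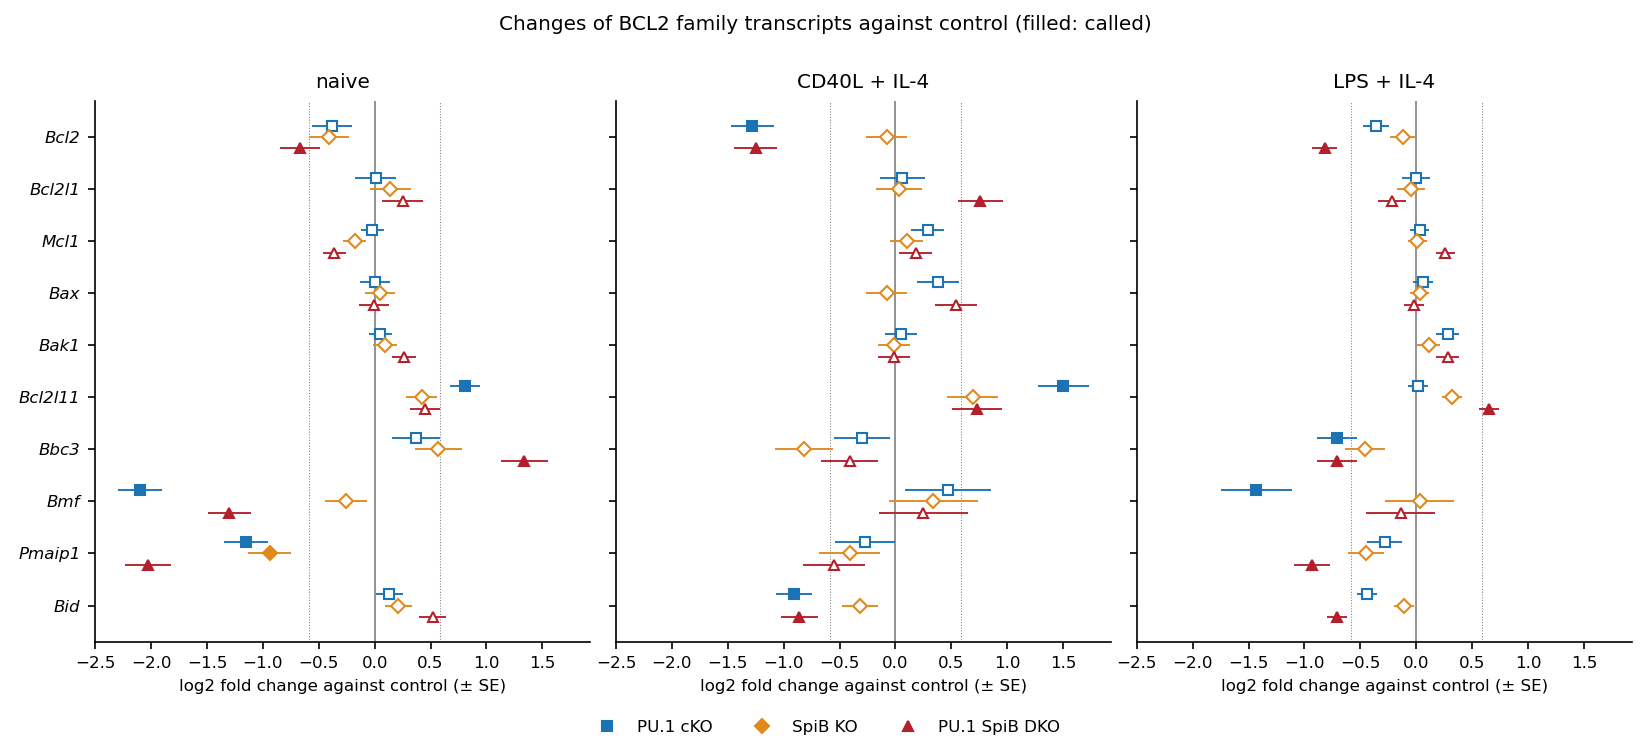
Log2 fold change against control (x axes, ± SE) of each gene (y axis) at the 3 stages, with colour and shape for the mutant genotype and filled symbols for DE genes. Dotted lines mark a fold change of 1.5. Bmf in naive PU.1 cKO (-2.10) and Pmaip1 in naive PU.1 SpiB DKO (-2.03) fell furthest, and Bcl2l11 in PU.1 cKO after CD40L + IL-4 (1.5) rose furthest.

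Within a library, the level of Bcl2 against that of Bcl2l11 can be given per length as the difference of their log2 RPKM. This pair was chosen after the values were seen and its difference was not tested. In CD40L + IL-4 cultures it was -0.67 and -0.89 in control, while SpiB KO had -1.54 and -1.60, PU.1 SpiB DKO -3.01 and -2.50 and PU.1 cKO -3.53 and -3.59. The 2 Spi1fl/fl Cd23T/+ groups thus had the least Bcl2 for their Bcl2l11, with no overlap with the other groups. After LPS + IL-4 the differences were -1.53 and -1.35 in control, while PU.1 cKO had -1.70 and -1.92, SpiB KO -1.75 and -2.06 and PU.1 SpiB DKO -3.00 and -2.95, so that PU.1 cKO stood with SpiB KO there. In naive cells control lay between -0.82 and -0.13, and the 6 mutant libraries between -1.86 and -1.07.

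**Figure D5:**
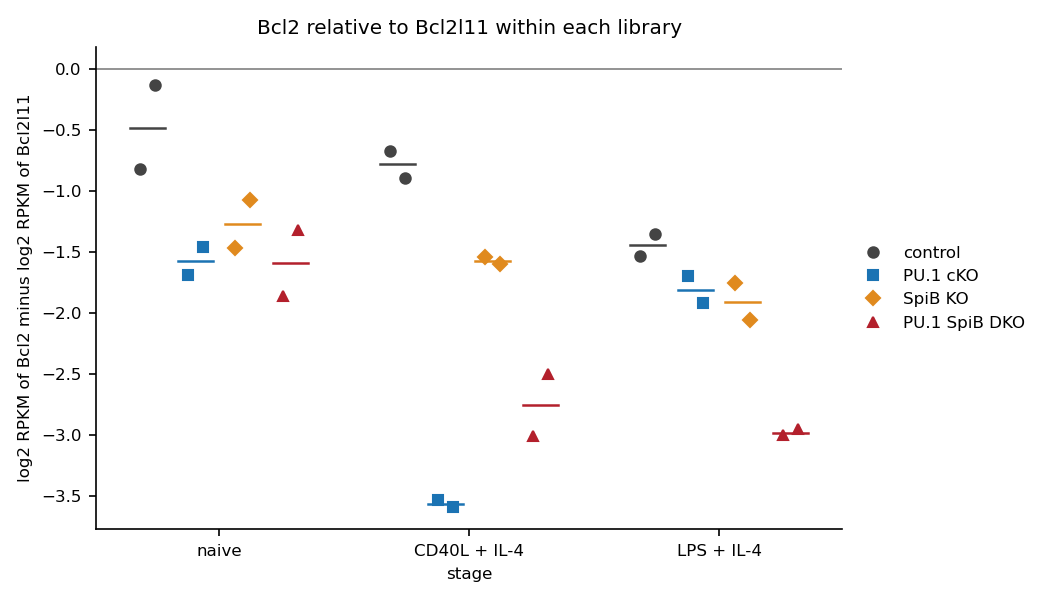
Log2 RPKM of Bcl2 minus log2 RPKM of Bcl2l11 (y axis) by stage (x axis), with 1 point per library, a line at each mean and colour and shape for genotype. After CD40L + IL-4, the 4 Spi1fl/fl Cd23T/+ libraries lay between -3.59 and -2.50, and after LPS + IL-4 only PU.1 SpiB DKO (-3.00 and -2.95) lay in that range.

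Bmf, for a BH3-only protein that can be held at the cytoskeleton, was lower in naive PU.1 cKO and in the naive double mutant. It was at 92.9 and 88.6 CPM in control, with PU.1 cKO at 25.3 and 18.8, SpiB KO at 77.2 and 77.1 and PU.1 SpiB DKO at 30.1 and 45. These 4 libraries lay below the other 4, and against control the falls were 4.3-fold in PU.1 cKO (-2.10 ± 0.20, adjusted p = 0.000369) and 2.46-fold in PU.1 SpiB DKO (-1.30 ± 0.19, adjusted p = 0.00165), the genotype in which more Spi1 transcript was left (109 and 118 CPM against 65.3 and 58.7). The part of that difference in Spi1 was not tested. PU.1 SpiB DKO was higher than PU.1 cKO (0.81 ± 0.20, adjusted p = 0.0294) and lower than SpiB KO (-1.03 ± 0.19, adjusted p = 0.0302). The former call was lost without PU.1 cKO replicate 2 (0.61, adjusted p = 0.248) or PU.1 SpiB DKO replicate 2 (0.49, adjusted p = 0.202), and the latter without SpiB KO replicate 1 or 2 or PU.1 SpiB DKO replicate 1 (adjusted p = 0.157 to 0.18). After CD40L + IL-4 Bmf was at 3.13 to 7.01 CPM in all 8 libraries, and its mean log2 RPKM of -0.06 meant that it could not be DE there.

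After LPS + IL-4 Bmf was at 14.9 and 9.22 CPM in control, with PU.1 cKO at 5.8 and 2.74, SpiB KO at 12.1 and 12 and PU.1 SpiB DKO at 10.6 and 9.85. PU.1 cKO was the only group below control (-1.43 ± 0.32, adjusted p = 0.0175), and PU.1 SpiB DKO was higher than PU.1 cKO (1.28 ± 0.32, adjusted p = 0.0219). The PU.1 by SpiB interaction of Bmf in that culture was 1.26 ± 0.44 (adjusted p = 0.331). With the replicate number as a block, which the LPS + IL-4 libraries support by their shared deviations, it was 1.28 with an adjusted p of 0.0533 and passed.

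Pmaip1, encoding NOXA, was lower than control in all 3 naive mutants. It was at 25.1 and 26.1 CPM in control, with PU.1 cKO at 10.8 and 13.4, SpiB KO at 15 and 12.2 and PU.1 SpiB DKO at 5.57 and 7.14. No mutant library reached control, and the double mutant lay below both single mutants. The falls were 2.22-fold in PU.1 cKO (-1.15 ± 0.19, adjusted p = 0.00874), 1.92-fold in SpiB KO (-0.94 ± 0.19, adjusted p = 0.0216) and 4.08-fold in PU.1 SpiB DKO (-2.03 ± 0.20, adjusted p = 0.000184), and the interaction was 0.06 ± 0.28 (adjusted p = 0.957). The SpiB KO call was lost without SpiB KO replicate 2 (-0.80, adjusted p = 0.155). PU.1 SpiB DKO was lower than PU.1 cKO by a log2 fold change of -0.88 ± 0.20 (adjusted p = 0.0223) and than SpiB KO by -1.09 ± 0.20 (adjusted p = 0.0302). The former call was lost without PU.1 SpiB DKO replicate 1 or PU.1 cKO replicate 2 (adjusted p = 0.152 and 0.192), the latter without PU.1 SpiB DKO or SpiB KO replicate 1 (adjusted p = 0.206 and 0.241).

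In the cultures the fall of Pmaip1 was smaller. After LPS + IL-4 it was at 22 and 21.9 CPM in control, with PU.1 cKO at 19.5 and 15.8, SpiB KO at 17.8 and 13.7 and PU.1 SpiB DKO at 12 and 9.82, and only the double mutant was DE against control (1.9-fold lower, -0.93 ± 0.16, adjusted p = 0.00232). It was also DE against PU.1 cKO (-0.64 ± 0.16, adjusted p = 0.0225), though not without PU.1 cKO replicate 1 (-0.51) or PU.1 SpiB DKO replicate 2 (-0.53). After CD40L + IL-4, at 7.32 to 13.6 CPM in the 8 libraries, it was DE in no comparison. The PU.1 SpiB DKO effect differed from that in naive cells by 1.49 ± 0.33 after CD40L + IL-4 (adjusted p = 0.00619) and 1.04 ± 0.31 after LPS + IL-4 (adjusted p = 0.0275). Spi1 was only partly deleted in the naive double mutant.

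Bbc3, encoding PUMA, changed direction with the stage. In naive cells it was at 4.07 and 4.03 CPM in control, with PU.1 cKO at 5.52 and 5.43, SpiB KO at 6.4 and 5.9 and PU.1 SpiB DKO at 10 and 10.8. The double mutant was above all others, by 2.53-fold against control (1.34 ± 0.21, adjusted p = 0.00204), and was DE against PU.1 cKO (0.97 ± 0.20, adjusted p = 0.0128) and SpiB KO (0.77 ± 0.20, adjusted p = 0.104). The last call was lost without any 1 of its 4 libraries (adjusted p = 0.317 to 0.466) and with DESeq2 (adjusted p = 0.195). The dendritic cell and T cell marker sums given above rose in the naive Spib-/- libraries in the same samples, and their part in the Bbc3 and Pmaip1 differences was not tested. After LPS + IL-4 Bbc3 was at 25 and 18.1 CPM in control, with PU.1 cKO at 14.3 and 11.3, SpiB KO at 16.1 and 14.5 and PU.1 SpiB DKO at 12.9 and 11.9. All mutant libraries lay below control, and the fall passed in PU.1 cKO (-0.71 ± 0.18, adjusted p = 0.0304) as well as in the double mutant (-0.71 ± 0.18, adjusted p = 0.0143). Without control replicate 1 both calls were lost (-0.44 and -0.45, adjusted p = 0.155 and 0.0642), and without PU.1 cKO replicate 2, the library with 3.26% Rn45s, the first was (-0.58, adjusted p = 0.208). The PU.1 SpiB DKO effect differed between LPS + IL-4 and naive cells, where Spi1 was only partly deleted, by -2.11 ± 0.31 (adjusted p = 0.000143).

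Bid fell below control after CD40L + IL-4 in PU.1 cKO and in the double mutant, and after LPS + IL-4 in the double mutant. After CD40L + IL-4 it was at 87.3 and 78.9 CPM in control, with PU.1 cKO at 45.7 and 42.7, SpiB KO at 63.9 and 68.6 and PU.1 SpiB DKO at 39.6 and 51.3. The 4 Spi1fl/fl Cd23T/+ libraries were below all others, 1.88-fold below control in PU.1 cKO (-0.91 ± 0.16, adjusted p = 0.00579) and 1.81-fold in PU.1 SpiB DKO (-0.86 ± 0.16, adjusted p = 0.00614). After LPS + IL-4 the values were 136 and 150 CPM in control, with PU.1 cKO at 107 and 99.1, SpiB KO at 130 and 132 and PU.1 SpiB DKO at 78.2 and 87.4. PU.1 SpiB DKO was DE against control (-0.71 ± 0.09, adjusted p = 0.00031) and against SpiB KO (-0.60 ± 0.09, adjusted p = 0.00157), the latter not without PU.1 SpiB DKO replicate 1 (-0.53) or SpiB KO replicate 2 (-0.58). PU.1 cKO lay below control but under the fold threshold (-0.44 ± 0.09, adjusted p = 0.00906). In naive cells, by contrast, PU.1 SpiB DKO was at 70.2 and 75.8 CPM against 53.5 and 46.9 in control (0.52 ± 0.12, adjusted p = 0.0152), also under the fold threshold. The PU.1 SpiB DKO effect differed from that in naive cells by -1.36 ± 0.18 after CD40L + IL-4 and -1.29 ± 0.17 after LPS + IL-4 (adjusted p = 3.81e-05 and 5.54e-05). Here too Spi1 was only partly deleted in the naive double mutant. Bid shares 628 exonic bases with Bcl2l13 on the opposite strand, and Bcl2l13, at 96.7 to 124 CPM in all 24 libraries, was not DE in any mutant against control (log2 fold changes from -0.09 to 0.12).

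In the cultures the 12 plasma cell markers summed to 1804 and 2093 CPM in control, with PU.1 cKO at 3241 and 3631 and PU.1 SpiB DKO at 4420 and 4566 after CD40L + IL-4, and to 1273 and 1436, 2166 and 2363, and 3015 and 2950 CPM after LPS + IL-4, with Tnfrsf17 at 0 in some groups. In PU.1 SpiB DKO, 11 of the 12 markers tested after CD40L + IL-4 and 10 of 11 after LPS + IL-4 were DE and higher. CD138+ cells had been removed in the sort, and the part of these markers in the changes of Bcl2, Bcl2l11, Bid and Bcl2l1 was not tested. In bulk libraries, fewer cells of a type and less RNA per cell cannot be told apart.

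Between the double and single mutants, 3 members were DE in naive cells against PU.1 cKO (7.21% of all genes) and 3 against SpiB KO (1.97%). After CD40L + IL-4 the counts were 2 (3.01%) and 3 (11.4%), and after LPS + IL-4 3 (8.1%) and 2 (8.09%). The PU.1 by SpiB interaction, which also holds the Cre and floxed allele differences, passed for 0, 1 and 0 members in naive, CD40L + IL-4 and LPS + IL-4 cells. It passed for 0.936%, 1.17% and 1.48% of all genes. In naive cells the double mutant had Spi1 only partly deleted. For the counts of 0, 2 members had an unadjusted p under 0.05 in each of naive and LPS + IL-4 cells with edgeR, DESeq2 passed 2 and 1, and voom 0 and 0. Effects that differed between stages (adjusted p under 0.15 in a fit of all 24 libraries) were counted too. For PU.1 cKO, 5 members differed between CD40L + IL-4 and naive cells, 3 between LPS + IL-4 and naive cells and 3 between the cultures, with 9.05%, 6.34% and 3.09% of all genes. For SpiB KO the counts were 1 (2.15%), 1 (5.65%) and 0 (0%), Bbc3 each time. In the last comparison no gene passed in edgeR or voom and 3 did in DESeq2, and 421 genes and 0 members had an unadjusted p under 0.05. For PU.1 SpiB DKO they were 6 (16.8%), 5 (29.6%) and 2 (28.6%).

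Other genes of the family and its pathway were summarized from fixed lists. In naive, CD40L + IL-4 and LPS + IL-4 cells, 14.1%, 13.7% and 13.6% of all genes tested were DE in PU.1 SpiB DKO. The pro-survival list includes Bcl2 and Bcl2l1, already given above. Of 8 pro-survival genes, 3 of the 6 tested in naive PU.1 SpiB DKO, 4 of 7 after CD40L + IL-4 and 3 of 7 after LPS + IL-4 were DE, all lower except Bcl2l1, and the list medians were -0.52, 0.13 and -0.82 beside 0.00, 0.00 and 0.01 over all genes. The largest changes were those of the A1 genes Bcl2a1b and Bcl2a1d, relatives of BCL2 induced by NF-kB. Their copies are nearly identical, so reads may be split between them or lost to unique mapping, and their single values are uncertain. After LPS + IL-4 Bcl2a1b was at 117 and 128 CPM in control, with PU.1 cKO at 10.5 and 8.65, SpiB KO at 60.1 and 63.2 and PU.1 SpiB DKO at 9.57 and 11.2. All mutants were below control, with log2 fold changes of -3.63 ± 0.12, -0.97 ± 0.11 and -3.48 ± 0.12 (adjusted p = 3.2e-07, 0.0028 and 3.15e-07). Bcl2a1b in PU.1 cKO after CD40L + IL-4, at 3.11 and 2.74 CPM against 41.4 and 51.2, was lower by a log2 fold change of -4.01 ± 0.25 (adjusted p = 5.61e-06), and Bcl2a1d had -5.57 ± 0.37 there (adjusted p = 8.71e-06).

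Of 8 BH3-only genes, 4 of 6, 2 of 7 and 4 of 7 tested were DE in PU.1 SpiB DKO. All were among the 10 genes above except Bad, another BH3-only antagonist of BCL2 and BCL-XL, named after its values were seen. In naive cells Bad was at 17.9 and 14.8 CPM in control and 33.1 and 28.5 in the double mutant (0.89 ± 0.16, adjusted p = 0.00376). Bax and Bak1, and Bok where tested, were not DE in these comparisons.

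The counts of the next lists stand beside 14.1%, 13.7% and 13.6% of all genes DE in PU.1 SpiB DKO at the 3 stages, and no list was tested as a group. Of 17 apoptosome, caspase and mitochondrial genes, 1 (higher), 5 (3 higher, 2 lower) and 1 (lower) were DE, with medians of 0.12, 0.12 and -0.06. After CD40L + IL-4 the lower ones were the executioner caspase gene Casp6, at 126 and 140 CPM in control and 31.5 and 36 in PU.1 SpiB DKO (-1.96 ± 0.15, adjusted p = 2.12e-05), and Casp9, for the initiator caspase of the apoptosome (-0.81 ± 0.17, adjusted p = 0.00908). Among the higher ones was Endog, for the mitochondrial endonuclease G, at 10.2 and 8.55 CPM in control and 16.1 and 21.3 in PU.1 SpiB DKO (1.01 ± 0.27, adjusted p = 0.0319). Of 5 inhibitor of apoptosis genes, 0, 0 and 1 were DE, and of the death receptor pathway 1 of 10, 0 of 10 and 1 of 9 tested. In naive cells this was Tnfrsf1a, for a TNF receptor, at 3.24 and 1.32 CPM in control and 15.7 and 13.9 in PU.1 SpiB DKO (2.68 ± 0.36, adjusted p = 0.000926), which was also at 16.1 and 11.3 CPM in SpiB KO. After LPS + IL-4 it was Cflar, for the caspase-8 inhibitor FLIP (-0.69 ± 0.07, adjusted p = 0.00012). Upstream, 2 of 9, 3 of 10 and 3 of 10 tested p53 genes were DE and higher in PU.1 SpiB DKO. Cdkn1a, for the cell cycle inhibitor p21, rose at all 3 stages (0.99 ± 0.32, 1.09 ± 0.24 and 1.02 ± 0.14, adjusted p = 0.0543, 0.0122 and 0.000747). Of 12 regulators of BH3-only genes and of MCL1 turnover, 2 (both lower), 4 (2 higher, 2 lower) and 4 (all higher) were DE. Foxo1, a transcription factor of BH3-only genes, was at 136 and 120 CPM in control and 306 and 294 in PU.1 SpiB DKO there (1.31 ± 0.09, adjusted p = 1.53e-05).

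Among the survival receptors of B cells, Cd40, for the receptor of CD40 ligand, and Tnfrsf13c, for the BAFF receptor, fell at all 3 stages in PU.1 SpiB DKO. Cd40 had log2 fold changes of -1.52 ± 0.14, -1.96 ± 0.20 and -2.14 ± 0.12 (adjusted p = 0.000131, 0.000107 and 3.71e-06). Tnfrsf13c had -0.92 ± 0.12, -1.21 ± 0.19 and -0.99 ± 0.09 (adjusted p = 0.000824, 0.00224 and 6.65e-05). Il4ra, for the IL-4 receptor, fell in naive cells (-0.89 ± 0.13, adjusted p = 0.00166) and rose in the cultures (0.72 ± 0.17 and 1.22 ± 0.11, adjusted p = 0.0169 and 5.12e-05). Of the 10 genes in that list, 4 of 9 (all lower), 3 of 10 (1 higher, 2 lower) and 5 of 9 (2 higher, 3 lower) tested were DE in PU.1 SpiB DKO. Cell cycle genes numbered 1 of 15, 0 of 16 and 0 of 16 DE. The counts of these lists too stand beside 14.1%, 13.7% and 13.6% of all genes.

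Pmaip1 and Bcl2l11 had the most calls against control, 4 each, as did Bcl2 with smaller changes. Over the 12 group means of log2 CPM, the patterns most like Pmaip1 among 13623 genes were those of Donson, Mier2 and Parp10 (Pearson r = 0.901, 0.900 and 0.890), and those most like Bcl2l11 were Ccdc64b, Uhrf2 and Gipc3 (r = 0.914, 0.876 and 0.871). These are descriptions over 12 means that share the stages, and nothing is said of shared control.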

How the data were processed

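The 24 RNA-seq libraries of B cells covered 4 genotypes and 3 stages in duplicate. Per the methods and the labels, the authors aligned reads to GRCm38/mm10 with Subread, kept unique alignments and deposited raw counts per gene over RefSeq exons from featureCounts. The authors also deposited quantile-normalized log2 RPKM, made for naive and CD40L + IL-4 libraries together and for LPS + IL-4 libraries separately. Rows with no gene symbol, 517 of 27179 with 0.162% of counts, stayed in the fits and in the shares of all genes where they passed the filter on low counts.

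Counts of all genes were fitted with edgeR 4.0.16 (TMM, quasi-likelihood F test, R 4.3.3) after a filter of 0.5 CPM in at least 2 libraries, and p-values were adjusted over all genes tested (Benjamini-Hochberg). Genotypes were compared in the 8 libraries of a stage, and control stages and stage differences in all 24. Fold and expression thresholds were not applied to interactions or stage differences. Log2 RPKM were used for levels per length and the expression threshold. The study fitted voom, which limma 3.58.1 gave as an alternative here, beside DESeq2 1.42.0, other scaling, no filter, an adjusted p of 0.05, other sets of libraries, a replicate block and leaving out each library. The fitting code was tested on simulated data.

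The numbers of the replicates are shared between genotypes. Deviations of same-numbered libraries correlated at 0.386 to 0.514 after LPS + IL-4, over 0.1 for each of 6 pairs of genotypes. This is a hint of pairing from the data and not from the labels. The range was 0.0918 to 0.25 in naive cells and -0.0702 to 0.266 after CD40L + IL-4, where not every pair was over 0.1. The main fits of all 3 stages had no replicate block. SE and adjusted p are therefore unpaired, for LPS + IL-4 as well, except where the block is named as an alternative. Members and gene lists were chosen with earlier results of these data known. All 10 members are named, with up to 3 called genes per list with the largest change in PU.1 SpiB DKO, the neighbours of a member near Spib, genes whose exons overlap a member's, and the 3 genes most like each of 2 members in pattern. Promoters came from RefSeq, and exon overlaps from GENCODE.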

Additional observations from a re-analysis of the deposited data

Results flagged for a closer look

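Effects of a genotype that differed between stages, by edgeR's test of the difference itself in the fit of all 24 libraries (adjusted p under 0.15), are listed here as log2 differences ± SE. The comparisons share control libraries, and no explanation was tested. Those of PU.1 SpiB DKO with naive cells set a fuller deletion of Spi1 in culture against a partial one, by the paper's reads over the deleted exon. Whole-gene Spi1 counts after LPS + IL-4 do not show the fuller deletion (59 and 54.4 CPM in PU.1 SpiB DKO, 69.4 and 60.3 in control).

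For PU.1 cKO, CD40L + IL-4 minus naive, the effect differed for Bcl2 (-0.89 ± 0.24, adjusted p = 0.0455), Bcl2l11 (0.71 ± 0.25, adjusted p = 0.136), Bmf (2.55 ± 0.49, adjusted p = 0.00497), Pmaip1 (0.88 ± 0.32, adjusted p = 0.14) and Bid (-1.02 ± 0.18, adjusted p = 0.00266). Bcl2 lost its call without CD40L + IL-4 PU.1 cKO replicate 2 (-0.67, adjusted p = 0.23). Bcl2l11 lost it without each CD40L + IL-4 control library, CD40L + IL-4 PU.1 cKO replicate 1, naive control replicate 1 and each naive PU.1 cKO library (adjusted p = 0.178 to 0.471). Pmaip1 lost it without any of these or naive control replicate 2 (adjusted p = 0.156 to 0.47).

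For PU.1 cKO, LPS + IL-4 minus naive, it differed for Bcl2l11 (-0.81 ± 0.25, adjusted p = 0.101), Bbc3 (-1.11 ± 0.32, adjusted p = 0.0782) and Bid (-0.60 ± 0.17, adjusted p = 0.0782). Without naive PU.1 cKO replicate 1 or naive control replicate 2 all 3 calls were lost (adjusted p = 0.178 to 0.323). Leaving out other libraries also lost Bcl2l11 (any LPS + IL-4 control or PU.1 cKO library), Bbc3 (naive PU.1 cKO replicate 2, LPS + IL-4 control replicate 1 or PU.1 cKO replicate 2) and Bid (naive PU.1 cKO replicate 2, LPS + IL-4 control or PU.1 cKO replicate 2).

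For PU.1 cKO, LPS + IL-4 minus CD40L + IL-4, it differed for Bcl2 (0.88 ± 0.24, adjusted p = 0.104), Bcl2l11 (-1.52 ± 0.25, adjusted p = 0.00402) and Bmf (-1.89 ± 0.49, adjusted p = 0.0778). Bcl2l11 kept its call without each library. Bcl2 lost it without CD40L + IL-4 control replicate 1 or PU.1 cKO replicate 2 or any LPS + IL-4 control or PU.1 cKO library (adjusted p = 0.168 to 0.45). Bmf lost it without either CD40L + IL-4 control library, CD40L + IL-4 PU.1 cKO replicate 1, LPS + IL-4 control replicate 1 or LPS + IL-4 PU.1 cKO replicate 2 (adjusted p = 0.162 to 0.22).

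For SpiB KO only Bbc3 differed, by -1.38 ± 0.33 for CD40L + IL-4 minus naive (adjusted p = 0.0485) and -1.04 ± 0.32 for LPS + IL-4 minus naive (adjusted p = 0.111). The first was lost without CD40L + IL-4 control replicate 2, naive SpiB KO replicate 1 or naive control replicate 2 (adjusted p = 0.166 to 0.189). The second was lost without naive control replicate 2, LPS + IL-4 control replicate 1 or any SpiB KO library of the stages (adjusted p = 0.167 to 0.325).

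For PU.1 SpiB DKO, CD40L + IL-4 minus naive, it differed for Mcl1 (0.56 ± 0.15, adjusted p = 0.0194), Bax (0.56 ± 0.21, adjusted p = 0.113), Bbc3 (-1.74 ± 0.33, adjusted p = 0.00146), Bmf (1.57 ± 0.51, adjusted p = 0.0623), Pmaip1 (1.49 ± 0.33, adjusted p = 0.00619) and Bid (-1.36 ± 0.18, adjusted p = 3.81e-05). Bax lost its call without CD40L + IL-4 control replicate 1, CD40L + IL-4 PU.1 SpiB DKO replicate 2, either naive control library or naive PU.1 SpiB DKO replicate 2 (adjusted p = 0.165 to 0.362). Bmf lost it without CD40L + IL-4 control replicate 1, CD40L + IL-4 PU.1 SpiB DKO replicate 2 or naive PU.1 SpiB DKO replicate 1 (adjusted p = 0.165 to 0.217).

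For PU.1 SpiB DKO, LPS + IL-4 minus naive, it differed for Mcl1 (0.56 ± 0.15, adjusted p = 0.0133), Bbc3 (-2.11 ± 0.31, adjusted p = 0.000143), Bmf (1.09 ± 0.42, adjusted p = 0.0808), Pmaip1 (1.04 ± 0.31, adjusted p = 0.0275) and Bid (-1.29 ± 0.17, adjusted p = 5.54e-05). Bmf lost its call without naive PU.1 SpiB DKO replicate 1, LPS + IL-4 PU.1 SpiB DKO replicate 1 or LPS + IL-4 control replicate 2 (adjusted p = 0.208 to 0.363). Between the cultures, LPS + IL-4 minus CD40L + IL-4, it differed for Bcl2l1 (-1.07 ± 0.24, adjusted p = 0.00644) and Bax (-0.64 ± 0.21, adjusted p = 0.0459), and Bax lost its call without CD40L + IL-4 control replicate 1, CD40L + IL-4 PU.1 SpiB DKO replicate 2 or LPS + IL-4 control replicate 2 (adjusted p = 0.171 to 0.222).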

How the results depend on the processing

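Of 2160 values of single genes under alternatives that kept all libraries, 2095 stayed on their side of the threshold, 32 lost a call and 33 gained one. No call reversed. The values that stayed include those called in neither setting. Over all alternatives, with those that left out a library, 2719 of 3840 values passed in neither setting, and 189 of these changed sign. Counts of calls moved by over 1.5 times in these cases. At an adjusted p under 0.05, PU.1 SpiB DKO against the single mutants after CD40L + IL-4 gave 2 calls in place of 5, the interaction 0 in place of 1, and differences between stages 15 in place of 26. The interaction gave 4 with DESeq2 and 4 with no filter on low counts. Differences between stages lost under another tool were those of Bbc3 in SpiB KO, both lost with voom (-1.29 and -0.83, adjusted p = 0.187 and 0.219), Bmf with voom (PU.1 cKO between the cultures, adjusted p = 0.162, and PU.1 SpiB DKO for CD40L + IL-4 minus naive, adjusted p = 0.174), and Pmaip1 in PU.1 cKO for CD40L + IL-4 minus naive with voom (adjusted p = 0.223). Leaving out 1 library at a time gave 2 to 5 calls against 6 for PU.1 SpiB DKO against the single mutants in naive cells, 2 to 5 against 5 after CD40L + IL-4, 3 to 5 against 5 after LPS + IL-4, and 0 to 3 against 1 for the interaction.

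With the replicate block the interaction gave 5 calls in place of 1, adding Bcl2l11 (-0.78, adjusted p = 0.00804) and Bmf (1.07, adjusted p = 0.0586) in naive cells, Bcl2l1 (0.67, adjusted p = 0.135) after CD40L + IL-4 and Bmf after LPS + IL-4. Over all genes in LPS + IL-4 cells it passed 1286 genes in place of 184. In control, Bcl2 (-0.51) and Bak1 (0.51) fell under the fold threshold for CD40L + IL-4 against naive, and 9 stage differences were gained. The block took replicate 1 of each stage as its baseline, so these 2 control values compare replicate 1 levels, not stage means. They cannot show how the control calls depend on pairing. The block changed no other call. In naive and CD40L + IL-4 cells the samples share only a number.

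With 2 libraries a group and at most 8 in a stage's fit, the spread is estimated from few samples. Bmf after CD40L + IL-4 lay at 3.13 to 7.01 CPM, where counts are few.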
